A study of Mus musculus with 10 samples.

Results

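The 10 genes described here serve the storage, release and transport of fatty acids: Plin2, the intracellular lipase genes Pnpla2, Lipe and Mgll, lipoprotein lipase Lpl and its inhibitor Angptl4, the transporter gene Cd36, and the carrier genes Fabp3, Fabp4 and Fabp5. Their probes were found by gene name among the array's annotations, and the genes were chosen with earlier results of these data known. All 10 genes were on the array, with 15 of its 23512 probes, and all 10 could be tested among 19567 genes. Plin2 and Angptl4 had 3 probes each, Fabp4 had 2, and the other genes had 1. The islets came from db/db mice, homozygous for the db mutation of Lepr, the leptin receptor gene, and from lean db/+ mice with 1 mutant copy, all 9 weeks old and on the C57BLKS/J background. By the labels, db/db mice of this age are severely hyperglycaemic while their raised insulin has declined from an earlier age. Each group had 5 biological replicates with 1 array each, and the number of mice behind a replicate is not given in the sources used here. Every array carried the replicate's islet RNA in the red dye Cy5 and db/+ islet RNA of the same age, as a common reference, in the green dye Cy3.

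Lipid droplets are stores of triglyceride with a single phospholipid layer at their surface, held by coat proteins of the perilipin family. Stored triglyceride is taken apart in steps by adipose triglyceride lipase, hormone-sensitive lipase and monoglyceride lipase, each releasing fatty acid. Fatty acids also reach cells from lipoproteins through lipoprotein lipase, cross the membrane with the help of CD36, and travel in the cytosol on fatty acid binding proteins. Beta cells use fatty acids as fuel and as amplifiers of insulin secretion, and a long excess of them together with high glucose is known to impair these cells.

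In db/db islets Fabp5, Plin2 and Angptl4 were higher and Lpl was lower on the brightest probe of each gene. On these probes the db/db arrays did not overlap with the db/+ arrays. The fold was 4.65 for Fabp5, 2.35 for Plin2 and 2.08 for Angptl4, while Lpl was 4.04-fold lower. The other 2 Angptl4 probes did not pass the test. The other 2 Plin2 probes were 1.71 and 1.19-fold higher, the last with overlapping groups. Lipe passed the test as lower, but its islet signal was alike in both groups, as given with its values. Cd36, Fabp3, Fabp4, Pnpla2 and Mgll did not pass the test. With limma's test on log2 Cy5 over Cy3 and Benjamini-Hochberg adjustment over all genes, 3 of the 10 genes were called higher and 2 lower at an adjusted p under 0.05. Among all genes tested 35.2% were called, 17.1% as higher and 18.1% as lower. A call is therefore common in this comparison, and the members' count of 5 in 10 is given without a test of its own. The arrays of the groups did not overlap for the same 3 genes above and 2 below, where 12.7% of all genes lay above and 12.7% below. The median log2 difference was 0.05 over the 10 genes and -0.02 over all genes.

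**Figure D1:**
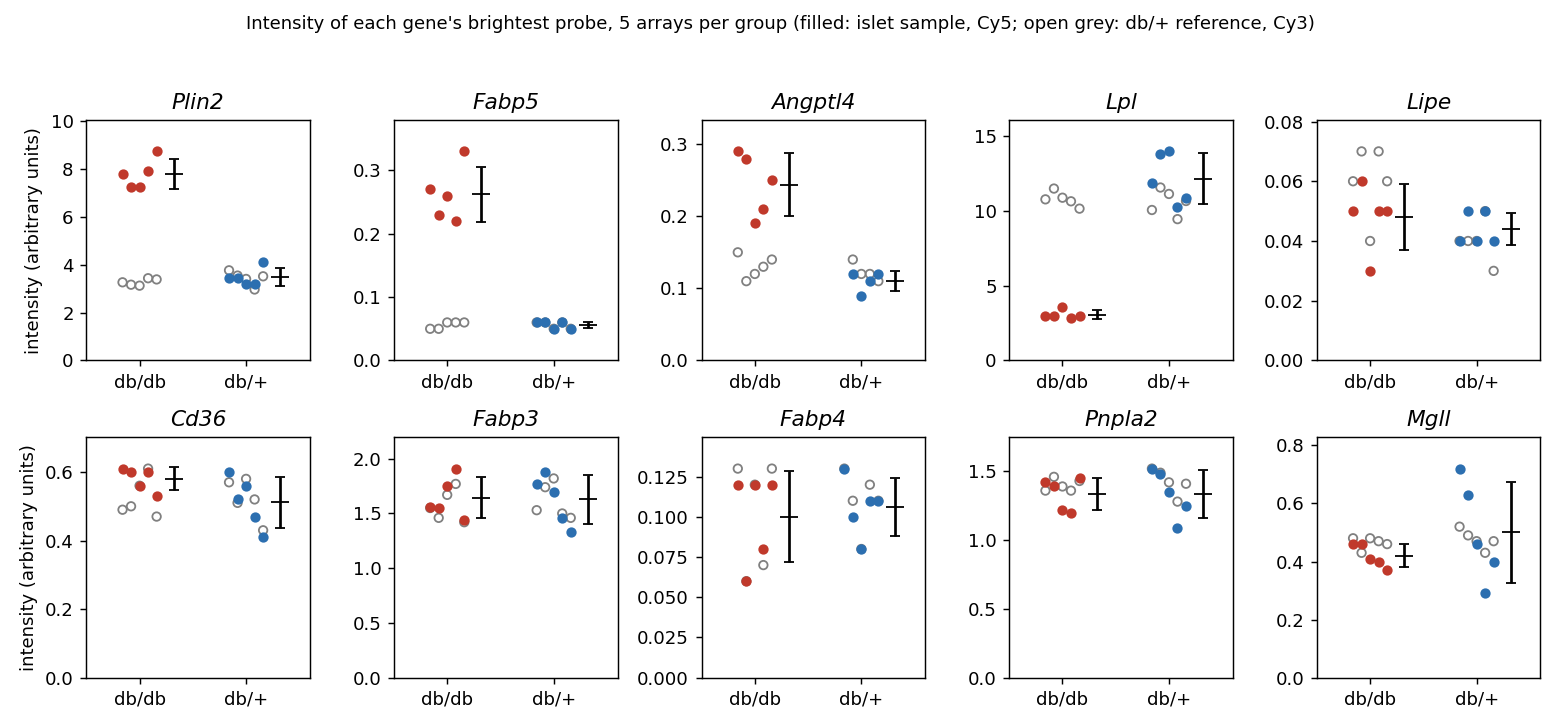
Intensity in arbitrary units on a linear axis for the brightest probe of each gene, with db/db arrays to the left of db/+ arrays. Filled points are the islet RNA (Cy5, 5 arrays per group, 4 for Angptl4 in db/+), open points the common db/+ RNA (Cy3), and bars the mean ± SD of the filled points. Plin2, Fabp5 and Angptl4 lie higher in db/db and Lpl lies lower, while the open points of these genes stay at one level.

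Some features of the whole data set bear on these values. Log2 ratios were spread more widely on db/db arrays (SD over probes 0.477 to 0.537) than on db/+ arrays (0.194 to 0.309), on which both dyes carry db/+ RNA. Quantile normalization of the ratios, an alternative cited below, gives all arrays the same spread and so removes this difference between the groups by construction. In the Cy3 channel, which held the same kind of RNA on every array, 5 of 23138 probes differed between the arrays of the groups (0.0216%). Intensities are mostly rounded to 0.01 units, so values near the lower quartile of 0.049 units are coarse. Lepr lay at a mean Cy3 intensity of 0.0117 units and was not called (-0.41 ± 0.37 SE on the log2 scale, adjusted p = 0.445), and its probe's place in the gene is not given, so it does not check the genotypes. The islet label was checked on the beta cell channel gene Kcnj11, whose islet signal averaged 6.8 units in db/db and 13 units in db/+, above the lower quartile in both.

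Plin2 encodes perilipin 2, the coat protein of lipid droplets in most cells other than adipocytes. Its brightest probe read 7.77, 7.24, 7.22, 7.9 and 8.72 units in the 5 db/db islet samples, against 3.45, 3.44, 3.18, 3.19 and 4.09 units in the 5 db/+ samples. The lowest db/db sample thus stood well above the highest db/+ sample, and the Cy3 signal ran from 2.96 to 3.76 units over all arrays. The log2 difference was 1.23 ± 0.07 SE (adjusted p = 3.02e-06). Within the db/db group the log2 ratios to the common RNA varied little, at 1.25 ± 0.0713 (SD, n = 5), against 0.01 ± 0.147 (SD, n = 5) in db/+.

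The other 2 Plin2 probes were an order of magnitude dimmer and moved less. The second probe read 0.36, 0.46, 0.66, 0.49 and 0.49 units in db/db islets, against 0.25, 0.28, 0.31, 0.33 and 0.34 units in db/+ islets. These groups were just apart, with db/db replicate 1 nearest to db/+. Fitted over all probes, its log2 difference was 0.77 ± 0.14 SE (adjusted p = 0.00215). The third probe gave 0.25 ± 0.08 SE (adjusted p = 0.0297), with 0.25 to 0.3 units in db/db and 0.19 to 0.28 units in db/+, so its groups overlapped. In the Cy5 signal alone the third probe was not called by limma's test (log2 difference 0.14, adjusted p = 0.479). By the ratio all 3 probes were called higher, where 15.9% of all probes were, but at 2.35, 1.71 and 1.19-fold. They carry the same accession in the file, and which part of the transcript each one covers is not given, so the size of the rise depends on the probe.

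**Figure D2:**
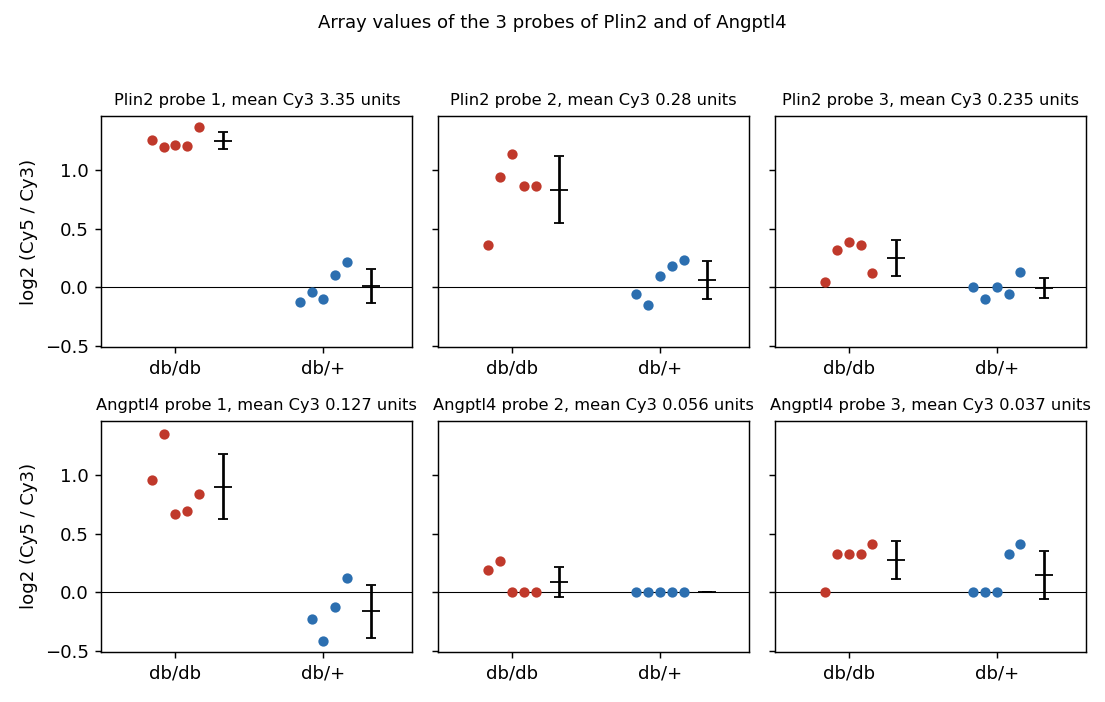
Log2 of Cy5 over Cy3 on each array for the 3 probes of Plin2 (top) and of Angptl4 (bottom), brightest probe at the left, with db/db arrays to the left of db/+ arrays in each panel. Bars are the mean ± SD. The rise in db/db is clear on the brightest probe of each gene and is smaller or not seen on the dimmer ones.

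The stretch before the Plin2 start site is shown beside that of Pnpla2, whose product acts on the same droplets and whose level did not pass the test. Both sequences come from a table of RefSeq promoters (GRCm38.p6) in which 6 of the 10 genes were matched, and each covers 250 bases before the start and 25 after it, 5′ to 3′. Capitals mark the E-box CACGTG, a site of basic helix-loop-helix factors, and the nuclear receptor core motif AGGTCA, read on both strands, with no overlap between them.
Plin2, chr4:86670035-86670309, minus strand: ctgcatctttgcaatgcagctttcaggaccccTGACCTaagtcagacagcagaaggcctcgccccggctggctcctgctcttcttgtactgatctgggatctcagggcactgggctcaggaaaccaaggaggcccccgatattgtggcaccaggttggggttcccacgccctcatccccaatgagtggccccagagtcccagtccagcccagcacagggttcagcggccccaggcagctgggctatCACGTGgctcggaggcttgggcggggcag
Pnpla2, chr7:141454938-141455212, plus strand: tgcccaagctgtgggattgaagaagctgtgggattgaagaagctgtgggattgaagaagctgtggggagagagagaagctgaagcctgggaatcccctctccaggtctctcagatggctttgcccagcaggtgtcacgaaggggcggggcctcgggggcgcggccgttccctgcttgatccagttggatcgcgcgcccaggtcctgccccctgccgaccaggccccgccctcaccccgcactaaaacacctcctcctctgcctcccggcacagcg
The Plin2 stretch held TGACCT, the core motif on the other strand, from base -218 to base -213, and the E-box across the start site from base -4 to base 1 after it, counting from 0 at the first transcribed base. The Pnpla2 stretch held neither. Each motif was also found before genes that were not higher. The E-box stood before 1 of 2 start sites each of Lipe and Mgll, the core motif stood before Cd36, and Fabp3 held neither. Plin2 alone held both. Fabp5, Angptl4, Lpl and Fabp4 had no matched promoter, so Plin2 was the only higher gene here and higher genes cannot be compared with the others. Over all 32851 promoters of the table, 6.68% held the E-box and 15.2% the core motif within the same length, so each word is common. Both motifs were picked after the sequences had been read, and a match is a description of letters, not of binding.

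None of the 3 droplet lipase genes differed beyond its spread in the islet signal itself. Pnpla2 encodes adipose triglyceride lipase, which takes the first fatty acid off triglyceride. It read 1.42, 1.39, 1.22, 1.2 and 1.45 units in db/db islets, against 1.52, 1.48, 1.35, 1.09 and 1.25 units in db/+ islets. The groups lay over each other, with a log2 difference of 0.03 ± 0.07 SE (adjusted p = 0.803). The 95% interval, from -0.13 to 0.18, leaves room for a small difference either way. The interval of Plin2, the coat gene of the same droplets, was 1.07 to 1.39 on its brightest probe and did not meet that of Pnpla2. The second Plin2 probe, at 0.46 to 1.08, did not meet it either, but the third, at 0.08 to 0.42, did.

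Mgll encodes monoglyceride lipase, which takes the last fatty acid off and also breaks down the endocannabinoid 2-arachidonoylglycerol. It read 0.46, 0.46, 0.41, 0.4 and 0.37 units in db/db islets, against 0.72, 0.63, 0.46, 0.29 and 0.4 units in db/+ islets. The db/db arrays were close together, and the db/+ arrays covered the whole of their range and more. Its log2 ratios had an SD of 0.165 in db/db and 0.427 in db/+ (n = 5 each). The log2 difference of -0.15 ± 0.19 SE was not called (adjusted p = 0.584), and its interval ran from -0.58 to 0.28.

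Lipe encodes hormone-sensitive lipase, which acts mainly on diglyceride and which beta cells express. Its islet signal was at the floor of the measurement, with 0.05, 0.06, 0.03, 0.05 and 0.05 units in db/db, against 0.04, 0.05, 0.04, 0.05 and 0.04 units in db/+. The islet signal was thus no lower in db/db. The ratio was called lower (log2 difference -0.48 ± 0.10 SE, adjusted p = 0.00467) because the Cy3 signal was 0.06, 0.07, 0.04, 0.07 and 0.06 units on the db/db arrays, against 0.04, 0.04, 0.04, 0.05 and 0.03 units on the db/+ arrays. That Cy3 difference was 0.49 ± 0.17 SE on the log2 scale (unadjusted p = 0.0178, adjusted p = 0.871). In the Cy5 signal alone the Lipe difference was -0.01 (adjusted p = 0.982), and rounding by 0.005 units on each value allows a ratio of 0.46 to 1.11. No fall of Lipe in db/db islets is read from these values.

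**Figure D3:**
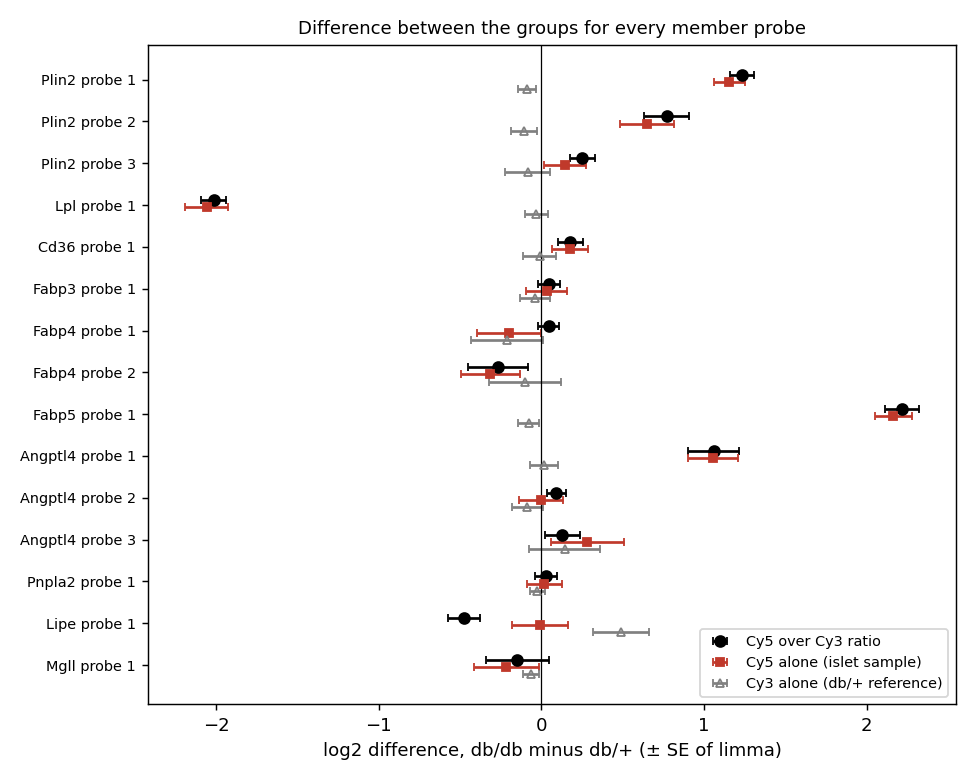
Log2 difference, db/db minus db/+, for all 15 probes: the Cy5 over Cy3 ratio (black), the islet signal alone (red) and the common Cy3 RNA alone (grey), each ± limma's SE. For the brightest probes of Plin2, Fabp5, Angptl4 and Lpl the red point lies beside the black one and the grey one near 0. For Lipe the red point is at 0 and the grey one at 0.49.

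Lipoprotein lipase is secreted and hydrolyses triglyceride of lipoproteins, mostly at the surface of capillaries, and it is also made by beta cells. Lpl read 2.98, 2.98, 3.55, 2.82 and 2.94 units in db/db islets, against 11.87, 13.76, 13.95, 10.24 and 10.87 units in db/+ islets. Every db/db value was far below every db/+ value, and the Cy3 signal of 9.43 to 11.5 units was alike on both kinds of array. The log2 difference was -2.02 ± 0.08 SE (adjusted p = 4.11e-07). In these whole islets, fewer cells of a type and less RNA per cell cannot be told apart. Beta cell markers fell in the same samples, among them the incretin receptor gene Gipr at 2.30-fold. Of 14 tested 9 were lower and 1 higher, where 18.1% of all genes were lower and 17.1% higher. The summed Cy5 signal of the 13 with a value on every array was 13.9 to 15.9 units in db/db and 26.4 to 29.7 units in db/+. That sum leaves out the brightest marker, Neurod1, which averaged 13.2 units in db/db and 16.8 units in db/+ and so fell less than the sum. Their part in the fall of Lpl was not tested. Acinar genes, which contaminating exocrine tissue would bring, had a summed Cy5 signal of 21 to 46.6 units in db/db and 43.3 to 65.6 units in db/+, over 8 genes of which 2 fell, or 7 when db/db replicate 2 is left out, 6 in the Cy5 signal alone and 0 after quantile normalization of the ratios. Of 5 delta and PP cell markers 1 was higher and 2 were lower (0 and 1 after quantile normalization). The 4 with a value on every array summed to 3.05 to 4.32 units in db/db and 4.87 to 6.76 units in db/+, without Sst, the brightest, which averaged 8.24 units in db/db and 13.7 units in db/+. Alpha cell markers summed to 21.2 to 30.2 units in db/db and 9.54 to 10.9 units in db/+. Most of that sum was Gc, which averaged 21.3 units in db/db and 7.71 units in db/+. Of the 6 alpha cell markers tested 3 were higher and 1 lower, and 1 was higher after quantile normalization. Gcg could not be tested.

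Angptl4 encodes a secreted protein that inactivates lipoprotein lipase and that fasting and PPAR agonists are known to raise. Its brightest probe read 0.29, 0.28, 0.19, 0.21 and 0.25 units in db/db islets, against 0.12, 0.09, 0.11 and 0.12 units in db/+ islets, with no value for db/+ replicate 1. All 5 db/db values were above all 4 db/+ values, and the log2 difference was 1.06 ± 0.16 SE (adjusted p = 0.00108). At these low intensities rounding alone allows a fold of 1.8 to 2.41. Its other 2 probes were dimmer, at mean Cy3 intensities of 0.056 and 0.037 units, and did not pass (log2 difference 0.09 ± 0.06 SE, adjusted p = 0.265, and 0.13 ± 0.11 SE, adjusted p = 0.418). Their values of 0.04 to 0.08 units in db/db and 0.02 to 0.06 units in db/+ overlapped. The rise of Angptl4 therefore rests on 1 of 3 probes, and it was not called where only probes with a value on every array were used (log2 difference 0.09, adjusted p = 0.255). The inhibitor gene and the lipase gene moved in opposite directions.

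Cd36 encodes the scavenger receptor that binds long-chain fatty acids and oxidised lipoproteins, and is abundant in capillary endothelium, macrophages and adipocytes. It read 0.61, 0.6, 0.56, 0.6 and 0.53 units in db/db islets, against 0.6, 0.52, 0.56, 0.47 and 0.41 units in db/+ islets. The ranges overlapped, with most db/db values in the upper part. The log2 difference of 0.18 ± 0.08 SE had an interval from 0.01 to 0.35 before adjustment and did not pass over all genes (adjusted p = 0.101). It did pass with loess within arrays (log2 difference 0.24, adjusted p = 0.0424), with the replicate number as a block (adjusted p = 0.0301) and without db/db replicate 4 (0.22, adjusted p = 0.0481).

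The fatty acid binding proteins are a family of small cytosolic carriers, named after the tissues in which they were found. Fabp5, the epidermal type, which macrophages and endothelial cells also make, read 0.27, 0.23, 0.26, 0.22 and 0.33 units in db/db islets, against 0.06, 0.06, 0.05, 0.06 and 0.05 units in db/+ islets. The db/+ values were at the level of the common RNA on every array, so all 5 log2 ratios of db/+ were 0.00, and every db/db value was several times higher. The log2 difference was 2.22 ± 0.10 SE (adjusted p = 1.03e-06). Because the db/+ signal was only 5 or 6 rounding steps high, rounding allows a fold of 3.49 to 6.24. Rounding can also hide spread among the db/+ ratios, so the SE and adjusted p may be too small. With 0.05 units added to both channels the log2 difference was 1.55, and it remained called.

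Fabp3, the heart type, read 1.56, 1.55, 1.75, 1.91 and 1.44 units in db/db islets, against 1.77, 1.88, 1.7, 1.46 and 1.33 units in db/+ islets. The groups overlapped throughout, and the log2 difference was 0.05 ± 0.07 SE (adjusted p = 0.612, interval -0.10 to 0.20). Fabp4, the adipocyte type, read 0.12, 0.06, 0.12, 0.08 and 0.12 units in db/db islets, against 0.13, 0.1, 0.08, 0.11 and 0.11 units in db/+ islets on its brighter probe. It was not called either (0.04 ± 0.06 SE, adjusted p = 0.626, interval -0.10 to 0.19), and its other probe lay at about 0.01 units, where rounding leaves no usable ratio. In RefSeq, Fabp5, Pmp2, Fabp9, Fabp4 and Fabp12 follow each other on chromosome 3. Of these 5 neighbours Fabp5 alone was called, with log2 differences of -0.01 for Pmp2, -0.08 for Fabp9 (a dim probe) and 0.12 for Fabp12. Elsewhere in the family Fabp6 was also called higher, 1.65-fold (adjusted p = 0.000982), at 0.082 units in db/db against 0.046 in db/+. It was not called after quantile normalization (log2 difference 0.60, adjusted p = 0.0648). Fabp1, Fabp2 and Fabp7 were not called.

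The authors' deposited table also gives a p-value for the 2 channels of each array. How it was computed is not stated in the labels or headers. In the authors' deposited table, p was under 0.01 on all 5 db/db arrays and on 0 db/+ arrays for the brightest probes of Plin2, Fabp5, Angptl4 and Lpl. For Lpl it ran from 1.88e-23 to 4.81e-12 on db/db arrays and from 0.1 to 0.8 on db/+ arrays, in the authors' deposited table. For the second Plin2 probe p was under 0.01 on 4 db/db arrays and 0 db/+ arrays, in the authors' deposited table. The brightest probes of the other 6 genes had 0 such arrays in either group, Lipe among them.

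The rest of the pathway was described with 6 lists of related genes, which share no gene and hold 123 tested genes. Together 28 of these were called higher (22.8%) and 10 lower (8.13%), beside 17.1% and 18.1% of all genes, with a median log2 difference of 0.05. Of the tested genes 26 were dim, under 0.049 units in both channels and groups.

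**Figure D4:**
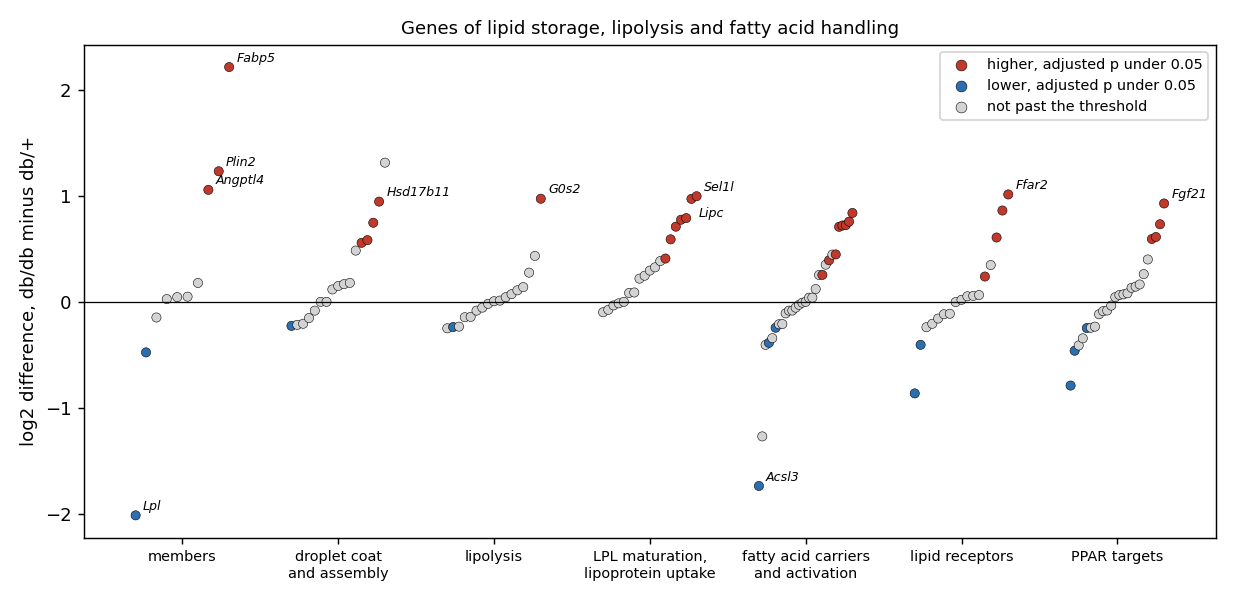
Log2 difference, db/db minus db/+, of each tested gene in the member list and the 6 related lists, sorted within a list. Red points passed the test as higher and blue points as lower, and grey points did not pass. Names are given for called genes whose difference exceeds 0.9 in size.

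Of 17 tested genes of the droplet coat and of droplet assembly, 4 were higher and 1 lower in db/db (median 0.15). Hsd17b11, a dehydrogenase found on droplets, rose 1.93-fold, at a mean of only 0.078 units in db/db against 0.038 units in db/+. Cidea, which promotes droplet fusion, rose 1.68-fold (log2 difference 0.75 ± 0.13 SE). Bscl2, encoding seipin of droplet formation, rose by 0.58 ± 0.09 SE on the log2 scale and Aup1 1.47-fold. Ldah, a droplet hydrolase gene, fell 1.17-fold and was not called after quantile normalization (adjusted p = 0.194) or in the Cy5 signal alone (adjusted p = 0.0575). The remaining perilipin genes were not called: Plin3, Plin4 and Plin5 had log2 differences of 0.18, 0.00 and 0.15 and Plin1, the adipocyte coat gene, -0.08, none past the test and Plin1 and Plin4 dim. Cidec gave 1.31 ± 0.56 SE (adjusted p = 0.102) on a dim probe.

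Of 17 tested lipolysis genes 1 rose and 1 fell (median 0.01). G0s2, which encodes an inhibitor of adipose triglyceride lipase, rose 1.96-fold, with an islet signal of 0.12 units in db/db against 0.064 in db/+ (log2 difference 0.97 ± 0.15 SE, adjusted p = 0.000742). It was not called after quantile normalization of the ratios (0.64, adjusted p = 0.0847). Pde3b, a phosphodiesterase gene of insulin's antilipolytic signal, fell 1.18-fold, with 2 of its 4 probes called lower, and was not called after quantile normalization (adjusted p = 0.432) or in the Cy5 signal alone (adjusted p = 0.0872). Abhd5, the coactivator of adipose triglyceride lipase, was dim and did not pass (log2 difference -0.15 ± 0.14 SE).

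Of 19 tested genes of lipoprotein lipase maturation, its partners and lipoprotein uptake, 7 were higher and 0 lower in db/db (median 0.30). After quantile normalization 3 were called higher, and without both arrays of largest spread (db/db replicate 2 and db/+ replicate 4) 4 were higher and 1 lower. Lmf1 and Sel1l, whose products are needed for folding and exit of lipoprotein lipase from the endoplasmic reticulum, rose 1.71-fold and 2.00-fold while Lpl itself fell. Lmf1 averaged 1.11 units in db/db islets and 0.63 units in db/+ islets. Sel1l, a member of the degradation machinery of that compartment, averaged 4.01 units in db/db and 2.04 units in db/+. Furin, a protease that cleaves lipase and angiopoietin-like proteins, rose 1.51-fold on its brighter probe and was not called in the mean of its probes (log2 difference 0.23, adjusted p = 0.48). Lipc, hepatic lipase, rose 1.96-fold on a probe of 0.06 units in db/db and 0.03 units in db/+ and was not called after quantile normalization (0.55, adjusted p = 0.12). Gpihbp1, which anchors lipoprotein lipase to capillaries, did not pass (0.39 ± 0.15 SE, adjusted p = 0.0747), nor did the lipoprotein receptor gene Vldlr (0.30 ± 0.13 SE, adjusted p = 0.0985).

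Of 29 tested genes of carriers, transporters and acyl-CoA synthetases 8 rose and 3 fell (median 0.00), with 5 higher after quantile normalization. The scavenger receptor gene Scarb1 rose 1.69-fold and the transport protein gene Slc27a3 1.65-fold. Scp2, a sterol carrier gene, rose 1.63-fold and was not called in the Cy5 signal alone (log2 difference 0.24, adjusted p = 0.237). Acsl3, which activates fatty acids at growing droplets, fell 3.34-fold, to 0.074 units in db/db against 0.234 in db/+ (-1.74 ± 0.15 SE, adjusted p = 2.75e-05), with both of its probes called lower. Its direction was thus opposite to that of the coat gene Plin2.

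Of 17 lipid receptor and regulator genes 4 rose and 2 fell (median 0.02), with 2 higher and 0 lower after quantile normalization. Ffar2, a receptor of short-chain fatty acids, rose 2.02-fold and Nr1h3, the liver X receptor alpha gene, 1.82-fold. Rxra rose 1.18-fold, and Ppargc1a fell 1.82-fold on a dim probe, 1 of its 2, and neither was called after quantile normalization (adjusted p = 0.188 and 0.067). None of the 3 PPAR genes passed, with log2 differences of -0.11 for Ppara, -0.21 for Ppard and -0.24 for Pparg. Of 24 other known PPAR targets 4 rose and 3 fell (median 0.05). Cpt1a, the gate of mitochondrial fatty acid oxidation, rose 1.66-fold on 1 of its 2 probes and the pyruvate dehydrogenase kinase gene Pdk4 1.53-fold on 2 of its 3, whereas the oxidation genes Acaa2 and Acadm fell 1.73-fold and 1.38-fold. The number of higher targets was 2 when db/+ replicate 2, 3 or 4 was left out. After quantile normalization 1 target was called higher and 1 lower, and Pdk4 (0.42, adjusted p = 0.0669) and Acadm (-0.34, adjusted p = 0.0841) were not called. The members hold known PPAR targets too. Of these Plin2 rose, Angptl4 rose on 1 of its 3 probes, Lpl fell, and Cd36, Fabp3 and Fabp4 were not called. The part of PPAR activity in these values was not tested.

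Several members are also expressed by cells that lie between or around endocrine cells. The counts of markers below stand beside 17.1% of all genes called higher and 18.1% called lower. Of 18 macrophage markers 7 rose and 0 fell (median 0.29), led by Mpeg1 at 1.75-fold and C1qa at 1.87-fold. The 18 had a summed Cy5 signal of 28 to 35.9 units in db/db and 17.3 to 28 units in db/+. Most of it came from C1qa, at means of 14.2 units in db/db and 8.05 units in db/+, and Itgam, at 12.1 and 12.2 units. Itgam, Adgre1, Cd68 and C1qb were not called, with log2 differences of 0.03, 0.07, -0.10 and 0.04. The count of higher macrophage markers fell to 1 after quantile normalization and to 4 in the Cy5 signal alone or without both arrays of largest spread. After quantile normalization neither Mpeg1 (adjusted p = 0.198) nor C1qa (adjusted p = 0.0575) was called. Of 14 endothelial markers 4 rose and 2 fell (median 0.17, sum 23.5 to 30.3 units in db/db and 16 to 23.4 units in db/+), with Egfl7 1.59-fold higher and Tie1 1.49-fold lower (7 rose when db/+ replicate 1 is left out, 2 rose and 0 fell after quantile normalization, and Tie1 was not called after quantile normalization, adjusted p = 0.0838). Of 12 mesenchymal markers 9 rose and 0 fell (median 1.05, sum 6.65 to 10.3 units in db/db and 2.31 to 4.42 units in db/+), with Col3a1 6.55-fold and Vim 3.15-fold higher. Of 10 duct markers 3 rose and 0 fell (median 0.30), and 5 rose without db/db replicate 5 or db/+ replicate 1, and 1 after quantile normalization. Their sum was 29.4 to 35.5 units in db/db and 20.1 to 28.2 units in db/+. Most of that sum was Spp1, which averaged 19.7 units in db/db and 14.3 units in db/+. Spp1 was not called in the Cy5 signal alone (log2 difference 0.19, adjusted p = 0.32). Of 7 lymphoid markers 1 rose and 0 fell (median 0.09, sum 12.6 to 15.7 units in db/db and 7.64 to 19.4 units in db/+). The part of these cells in the rises of Fabp5, Plin2 and Angptl4 was not tested.

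Of 13 adipocyte markers tested 2 rose and 1 fell (median -0.01), a share of higher calls near that of all genes. Of the 13, 8 were dim, and of all dim genes 5.61% were called in either direction. Their summed Cy5 signal was 2.47 to 3.02 units in db/db islets and 2.36 to 2.63 units in db/+ islets, and no marker was listed at 0. The defining genes Adipoq, Lep and Plin1 had mean Cy5 intensities of 0.04, 0.04 and 0.034 units in db/db and 0.032, 0.034 and 0.038 units in db/+, all under the lower quartile. Slc2a4, the insulin-regulated glucose transporter gene, rose 2.03-fold, to 0.154 units in db/db against 0.076 in db/+.

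Genes whose ratios lay nearest to those of the members called with a fold of at least 2 were found by the root mean square difference of log2 ratios over the arrays, as a description. For Plin2 these were Olfm1, Slc9a9 and Hic1 (0.111 to 0.122 over 10 arrays), and for Lpl Hspa12a, Maob and Cryl1 (0.228 to 0.236). For Fabp5 they were Hunk, Kdelr3 and Kcnj8 (0.16 to 0.198), and for Angptl4, over the 9 arrays with a value, Urah, Serpinb1c and Gstp1 (0.112 to 0.14). The neighbours of Lpl lay farther from it than those of the other genes did, and Maob, with a log2 difference of -2.05, was the nearest to it in size.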

How the data were processed

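Islet RNA of 5 db/db and 5 db/+ replicates was measured on 2-colour arrays. Per the labels' protocols, Trizol-extracted total RNA was amplified in 2 rounds from 100 ng. The submitters' processing notes name Agilent Feature Extraction 8.5.1.1. The deposited Cy3 and Cy5 intensity values, per the file headers, are in arbitrary units. The authors' p-value per probe and array compares both channels. The deposited log10 ratios equal log10 of Cy5 over Cy3 to within 4.98e-07 and have a median of 0 on each array. Background subtraction, dye normalization and genome build are not stated in them.

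The log10 ratios were turned into log2 with no pseudocount. Probes needed 3 values in each group, symbols were updated through RefSeq (GRCm38.p6), and of several probes the one brightest in Cy3 stood for the gene. Groups came from the Cy5 channel's labels. The comparison used limma 3.58.1 under R 4.3.3 (lmFit, eBayes, no covariate, Benjamini-Hochberg over 19567 genes, 2-sided), tested on simulated data. Other probes were fitted over all 23138 tested probes, chosen after seeing the data. SE is limma's moderated standard error. Precision is limited by the number of arrays. p-values measure the spread between these samples. Members, lists and tests were chosen with earlier results of these data known. Besides the members, named genes are up to 4 called genes of smallest adjusted p per list, with those needed to state a count. Others named from lists (Ldah, Cidec, perilipins, Abhd5, Gpihbp1, Vldlr, PPAR genes, Adipoq, Lep, Itgam, Adgre1, Cd68, C1qb) were chosen after their values were seen. So were Fabp1, Fabp2, Fabp6 and Fabp7. Alternatives are given in the closing section. Python 3.11.15, pandas 2.3.3 and matplotlib 3.10.9 were used for the rest.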

Additional observations from a re-analysis of the deposited data

Results flagged for a closer look

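On the third, dimmest probe of Angptl4, db/db replicate 1 had a log2 ratio of 0.00, apart from the other 4 db/db arrays at 0.32 to 0.42. Its gap to the nearest was 0.776 of the group's range. The probe's values are 0.04 to 0.05 units in that group, where 1 rounding step makes such a gap. Of 27 combinations of member probe and group examined this was the 1 that stood out, and chance gives about 1 in 20.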

How the results depend on the processing

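Over 24 alternatives each, the direction and call of Plin2 (log2 difference 0.75 to 1.28), Lpl (-2.07 to -1.84) and Fabp5 (1.55 to 2.30) were the same, and Fabp3 (0.01 to 0.12) and Mgll (-0.35 to -0.03) were called in none. Angptl4 lost its call with probes of 10 values (0.0911), which leaves out its brightest probe. Lipe lost its call after quantile normalization (-0.52) and in the Cy5 signal alone (-0.0078). Cd36 gained one with loess (0.24), with the replicate block (0.18) and without db/db replicate 4. Uncalled values changed sign for Fabp4 in the Cy5 signal alone (-0.20) and in the mean of its probes (-0.11), and for Pnpla2 without both arrays of largest spread (-0.0075, an alternative added after seeing the data). Leaving out single arrays gave 0.14 to 0.22 for Cd36, -0.0051 to 0.0719 for Fabp4 and -0.0074 to 0.0554 for Pnpla2. Quantile normalization called 1 member lower, as did the Cy5 signal alone. It also called 1677 genes higher and 1508 lower, with 15 and 4 of the pathway lists and 15 and 9 of the cell type lists. The 38 pathway genes called in the main comparison held 18 that were also called then. At an adjusted p under 0.01, 2262 genes were lower. Same-numbered arrays of the groups correlated at 0.04 to 0.22 and 3 of 10 arrays correlated best with their own number, so the numbers are not taken to pair them, and the block changed no other member's call. Rounding to 0.01 units limits the values of Fabp4, Fabp5, Angptl4 and Lipe.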
